A study of Mus musculus with 12 samples.

Results

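The genes described here are 10 that build, remodel or take up lipoproteins: Apoa1, Apoa2, Apoa4, Apoa5, Apob, Apoc3, Apom, Mttp, Vldlr and Pltp. They were chosen by symbol. Every probe set that the platform annotation gives to exactly these symbols was taken, which made 23 of the 45101 probe sets on the array and 10 of 18194 genes. Vldlr had 6 probe sets, Apoa1 had 4, Apoa4, Apob, Apom, Mttp and Pltp had 2 each, and Apoa2, Apoa5 and Apoc3 had 1 each. All 23 passed the filter on low signal, a signal higher than the median of its array in 3 or more of the 12.

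The liver packs triglyceride and cholesterol into very low density lipoprotein around apolipoprotein B, with Mttp, the microsomal triglyceride transfer protein, loading the lipid. High density lipoprotein is built on apolipoproteins A-I and A-II, carries apolipoprotein M, and is remodelled in plasma by Pltp, the phospholipid transfer protein. Apolipoproteins C-III and A-V act in opposite directions on the lipolysis of triglyceride-rich particles, and the receptor encoded by Vldlr takes such particles up, mostly in tissues other than liver.

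Liver RNA came from adult female mice of the B6.129 background. WT mice were Esr1+/+ and aERKO mice were Esr1-/-, so that they lacked a working gene for estrogen receptor alpha in every tissue. Each genotype was kept either on the NIH-31 diet, here the normal diet, or for 2 weeks on a research diet with 60 kcal% fat, here the high-fat diet, and each of the 4 groups had 3 arrays. The comparisons ask how the absence of the receptor and the diet act on liver transcripts, separately and together. The diets were different products and may differ in more than fat, and the labels do not name the mutant line, so a difference between genotypes belongs to the line as a whole. Whether the replicates are separate animals is not in the labels, and a p-value here therefore speaks only of scatter among these RNA samples, part or all of which could be technical.

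The values are linear MAS5 signals, scaled before deposit so that the trimmed mean was 500 on every array. Esr1 itself gave signals of 1963 to 3929.6 on the 6 WT arrays and 586 to 885 on the 6 aERKO arrays, with no overlap, as the labels ask. All 8 hepatocyte markers on the array lay above the median on every array. RNA of other tissues was present on some: over 9 genes of pancreatic acinar cells the log2 signal averaged 13.9 in WT normal replicate 2, 13.6 in aERKO normal replicate 1, and 12.6 and 10.1 in replicates 3 and 2 of WT on the high-fat diet, against 5.58 to 6.53 on the other 8 arrays. For 12 skeletal muscle genes it was 10.6 in aERKO normal replicate 1 and 8.62 in aERKO high-fat replicate 2, against 5.42 to 7.18 elsewhere. Scores of some marker lists of other liver cells were lower in aERKO too, in part by narrow gaps. The mean log2 signal of 8 macrophage markers, all 8 above the median on every array, was 10.20 to 10.73 in aERKO and 10.78 to 10.94 in WT on the normal diet, and 10.26 to 10.54 against 10.62 to 11.02 on the high-fat diet, with no overlap on either. Scores of 5 stellate cell markers were lower without overlap in aERKO on the normal diet alone, and those of 6 endothelial and 4 biliary markers on the high-fat diet alone (9.14 to 9.41 against 9.43 to 9.69, 10.03 to 10.27 against 10.34 to 10.50, and 6.05 to 6.25 against 6.26 to 7.03). On the high-fat diet the stellate scores overlapped, at 9.47 to 9.84 in aERKO and 9.12 to 9.93 in WT. All 6 endothelial markers lay above the median on every array, against 3 of the 5 stellate and 0 of the 4 biliary markers. On the high-fat diet biliary Sox9 had a higher mean signal in aERKO (73.0 against 54.8). So did endothelial Lyve1 (2211 against 1970) and Pecam1 (203 against 194), while the other markers of these 2 lists were lower. The part of these cells in the genotype differences was not tested. For those of the 10 genes that passed a test, values or calls without the acinar and muscle arrays are given below.

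The 4 genes on which the results turn are Vldlr, Apom, Apoa2 and Pltp, and the 250 bases before their annotated starts are shown here because Vldlr and Apom differed together by genotype while Pltp differed by diet, and because Apoa2 holds the only AGGTCA match. The sequences are from RefSeq on GRCm38.p6 and are written 5′ to 3′ on the gene's own strand. Apoa2 is shown at both of its annotated starts and Vldlr at the outer of its pair. Capitals mark matches to either of 2 motifs, the nuclear receptor hexamer AGGTCA and TATAAA, on either strand.
Apom (GRCm38.p6, chr17:35131802-35132051, minus strand): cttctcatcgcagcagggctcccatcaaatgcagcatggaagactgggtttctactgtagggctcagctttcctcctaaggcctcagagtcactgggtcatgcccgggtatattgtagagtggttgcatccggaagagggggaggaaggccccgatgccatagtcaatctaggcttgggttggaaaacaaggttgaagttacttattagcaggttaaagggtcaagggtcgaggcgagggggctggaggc
Vldlr (GRCm38.p6, chr19:27216234-27216483, plus strand): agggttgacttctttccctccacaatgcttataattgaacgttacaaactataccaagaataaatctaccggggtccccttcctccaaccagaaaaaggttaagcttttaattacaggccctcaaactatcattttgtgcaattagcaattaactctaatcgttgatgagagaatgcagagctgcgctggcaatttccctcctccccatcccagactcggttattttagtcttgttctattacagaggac
Apoa2 (GRCm38.p6, chr1:171221314-171221563, plus strand): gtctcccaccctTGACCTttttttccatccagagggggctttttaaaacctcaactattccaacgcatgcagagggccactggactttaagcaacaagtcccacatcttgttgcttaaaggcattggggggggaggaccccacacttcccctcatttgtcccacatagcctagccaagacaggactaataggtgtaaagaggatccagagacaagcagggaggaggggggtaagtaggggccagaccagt
Apoa2 (GRCm38.p6, chr1:171224804-171225053, plus strand): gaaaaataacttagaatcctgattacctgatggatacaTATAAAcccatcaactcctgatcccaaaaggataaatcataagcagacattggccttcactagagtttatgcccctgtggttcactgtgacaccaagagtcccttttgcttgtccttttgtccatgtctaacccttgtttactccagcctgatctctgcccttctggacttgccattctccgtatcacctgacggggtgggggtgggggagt
Pltp (GRCm38.p6, chr2:164857709-164857958, minus strand): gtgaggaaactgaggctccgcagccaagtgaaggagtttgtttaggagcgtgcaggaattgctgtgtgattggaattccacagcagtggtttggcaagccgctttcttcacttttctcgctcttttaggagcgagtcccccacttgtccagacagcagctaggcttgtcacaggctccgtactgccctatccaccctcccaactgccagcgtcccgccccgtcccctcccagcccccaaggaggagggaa
The table held 12 windows for 9 of the 10 genes, each of 300 bases including 50 after the start, and Apoc3 was not among them. AGGTCA occurred in 16.3% of all 32851 windows and in 1 of these 12, the outer Apoa2 start, where it lies on the opposite strand. Spaced pairs of that hexamer (direct repeats with 1 or 4 bases between, an inverted repeat with 3 between), which by construction overlap matches to the hexamer, were in 0 of the 12 and in 0.0396%, 0.0152% and 0.0213% of all windows. TATAAA occurred in 13.6% of all windows and in 5 of these 12, those of the inner Apoa2 start, both Apoa5 starts, Apob and Pltp. The Pltp match lies after the start and so outside the bases shown.

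**Figure D1:**
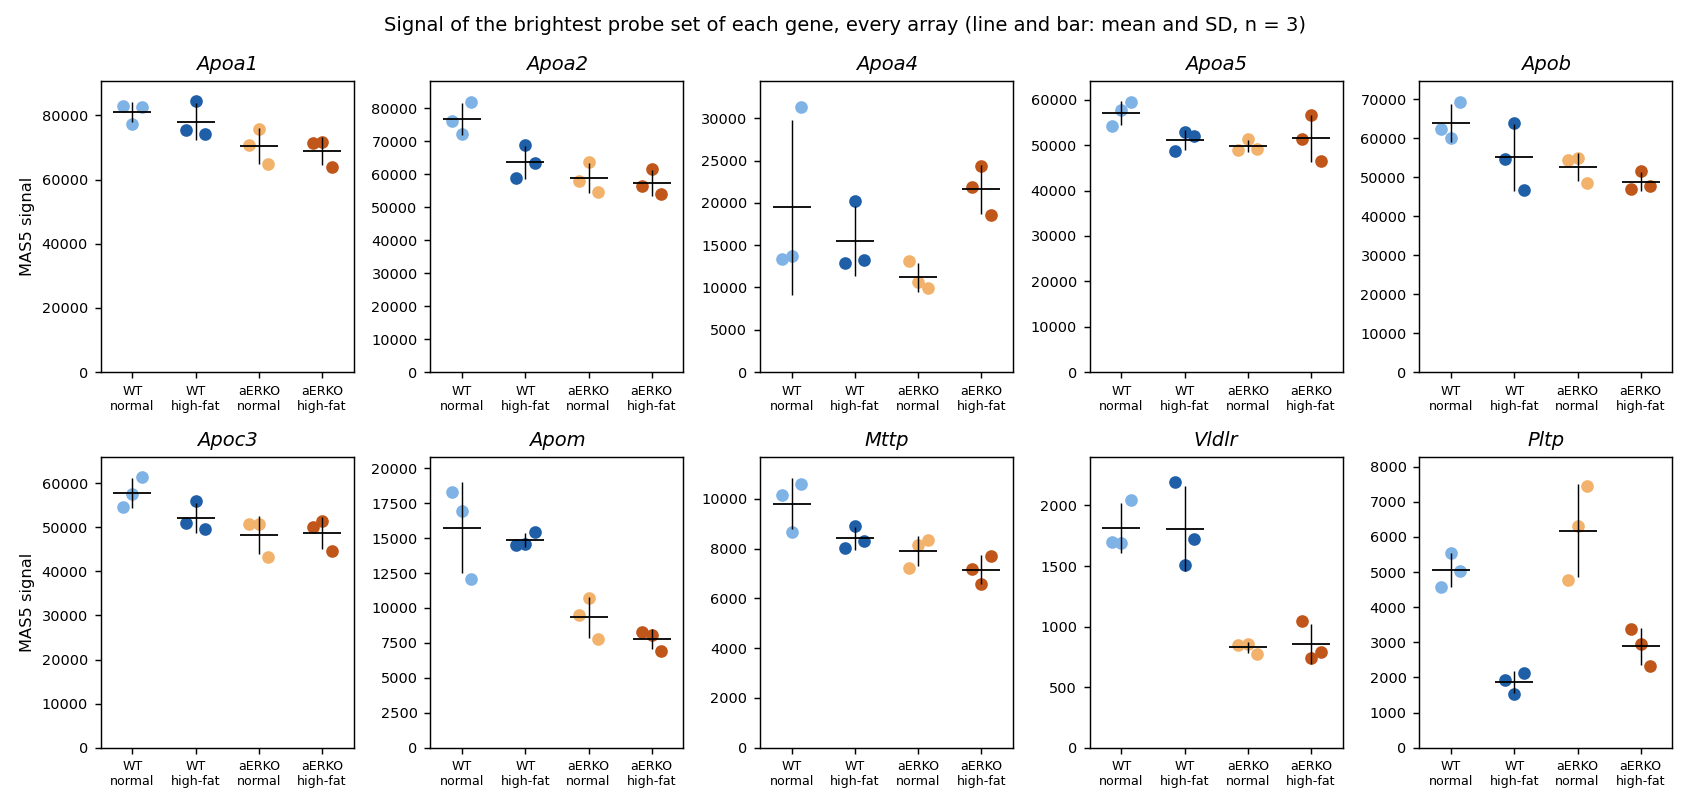
MAS5 signal (vertical axis, starting at 0) of the brightest probe set of each of the 10 genes on all 12 arrays, by group. Points are arrays, the horizontal line is the mean and the bar is the SD of 3 arrays; Vldlr and Apom separate by genotype on both diets, and Pltp separates by diet in both genotypes.

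Vldlr and Apom had lower signals without the receptor on both diets, and Apoa2 was lower on the normal diet by a smaller factor. Pltp was lower on the high-fat diet in both genotypes, and no other of the 10 genes passed the test for a diet difference. No gene passed a test of whether the diet difference depended on genotype. Levels below are for the brightest probe set of a gene, ratios and log2 differences are of signal + 16, and tests are limma's with adjustment over 12264 genes.

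Vldlr, the very low density lipoprotein receptor, gave signals of 1701, 1687 and 2048 in WT on the normal diet and 850.2, 856 and 778 in aERKO. In the high-fat groups the signals were 2192, 1511 and 1725 in WT and 1048, 741 and 789 in aERKO. All 6 aERKO arrays were below all 6 WT arrays. In aERKO the level was 0.463 times that of WT on the normal diet (log2 difference -1.11 ± 0.16 SE, adjusted p = 0.00208, n = 3 per group) and 0.480 times on the high-fat diet (-1.06 ± 0.16, adjusted p = 0.00266). In whole tissue, fewer cells of a type and less RNA per cell cannot be told apart, here or in any result below. Diet made little difference to the brightest set, with log2 differences of -0.01 in WT and 0.04 in aERKO. Without the 4 arrays with acinar transcripts the genotype differences were -1.18 (adjusted p = 0.0180) and -1.35 (adjusted p = 0.0254). That setting leaves a lone WT high-fat array, which the shared estimate takes to vary like the other groups. Without the 2 arrays with the highest muscle scores the calls for Vldlr, and those for Pltp below, were kept.

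The 6 Vldlr probe sets had signals that differed widely, which reflects the probes and gives no order of transcript levels, but all 6 were lower in aERKO on both diets. Tested as rows of their own, the differences ran from -0.50 to -1.38 on the normal diet and from -0.54 to -1.06 on the high-fat diet. Within a diet fewer passed. On the normal diet the brightest set (adjusted p = 0.00279) and another (0.0377) passed. On the high-fat diet the brightest set alone passed (adjusted p = 0.00338), the rest having adjusted p from 0.0693 to 0.542. Averaged over the diets, 5 of the 6 passed (adjusted p from 6.1e-05 to 0.0312), and the dimmest set did not (-0.52 ± 0.26, adjusted p = 0.299). That set read 57.7 to 97.5 on the 6 aERKO arrays and 66.0 to 190.4 on the 6 WT arrays, so the genotypes overlapped. They also overlapped for a set at 130 to 178 in aERKO and 159 to 326 in WT. The same was so for a set at 83.9 to 140.5 in aERKO and 123 to 409 in WT. When each gene was given the mean of all its probe sets, the Vldlr difference on the high-fat diet was -0.74 and no longer passed (adjusted p = 0.112). The brightest Vldlr and Apoa4 sets and 3 of the Apoa1 sets carry the manufacturer's suffix x, which marks probes that can match other transcripts as well, whereas 4 of the other Vldlr sets do not carry it or the similar suffix s. The brightest Pltp set and the dimmest Vldlr set carry the suffix s, and the second Pltp set carries neither.

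Apom, the high density lipoprotein component that carries sphingosine-1-phosphate, gave 18302, 16914 and 12049.8 in WT and 9475, 10744 and 7806 in aERKO on the normal diet. After high-fat feeding it gave 14538, 14609 and 15428 in WT and 8260.1, 8094 and 6950.1 in aERKO. Again all 6 aERKO arrays were below all 6 WT arrays, and WT normal replicate 3 was the lowest of the WT arrays. The aERKO level was 0.598 times that of WT on the normal diet (-0.74 ± 0.15, adjusted p = 0.0248) and 0.522 times on the high-fat diet (-0.94 ± 0.15, adjusted p = 0.00361). The second Apom set gave 9547, 9117, 7762, 7828, 9762 and 8900.3 on the WT arrays and 5371, 5570.3, 4702, 5200.3, 4626 and 4011 on the aERKO arrays, normal diet listed before high-fat diet. Its groups did not overlap either, and its differences were -0.75 ± 0.12 (adjusted p = 0.00784) and -0.94 ± 0.12 (adjusted p = 0.00106). For the brighter set the call on the normal diet was lost in 10 of 28 alternative settings, although the difference stayed between -0.62 and -0.92. It was lost when WT normal replicate 1 (adjusted p = 0.0951), WT normal replicate 2 (0.102), aERKO normal replicate 1 (0.0598) or aERKO normal replicate 3 (0.104) was left out. Without the 4 arrays with acinar transcripts the differences were -0.70 (adjusted p = 0.257) and -0.91 (adjusted p = 0.185), and averaged over the diets the difference still passed (-0.80, adjusted p = 0.0299). Without the 2 arrays with the highest muscle scores the normal diet difference was -0.76 (adjusted p = 0.0946).

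**Figure D2:**
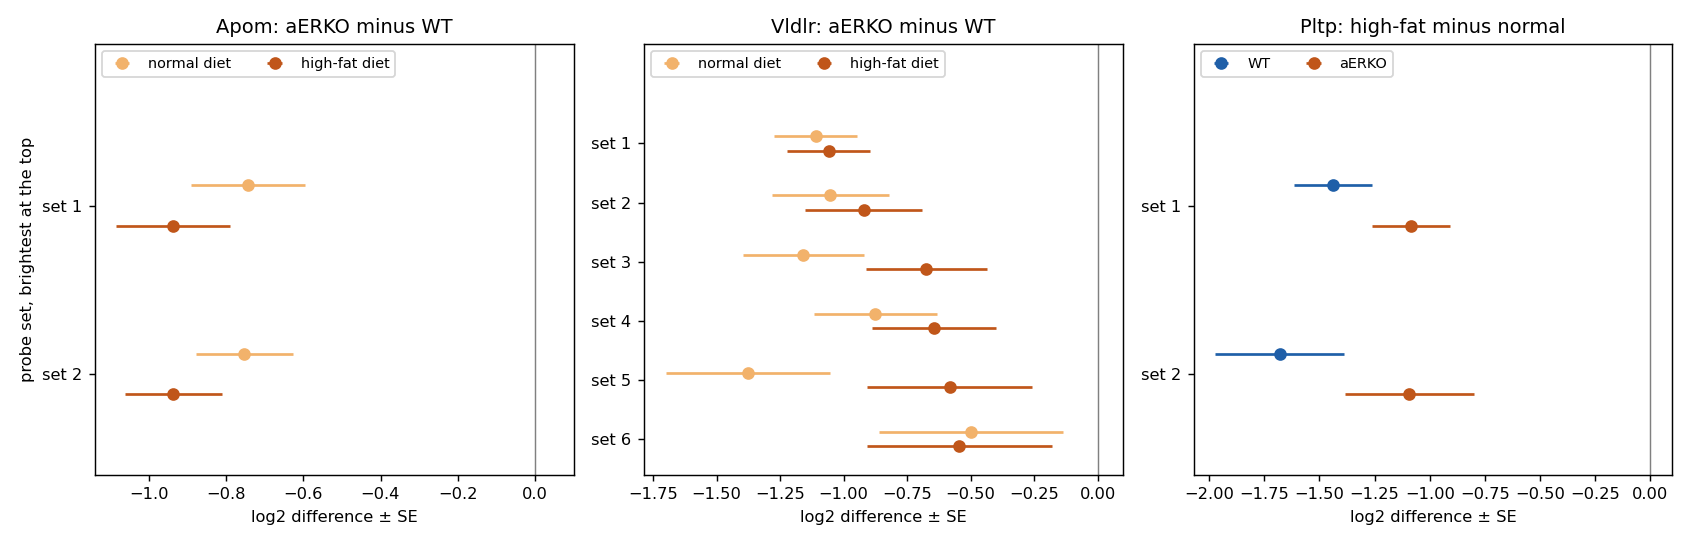
Log2 differences with their SE (horizontal axis) for each probe set of Apom, Vldlr and Pltp, brightest at the top, each tested as its own row. Every Apom and Vldlr set lies below 0 for aERKO minus WT on both diets, and both Pltp sets lie below 0 for high-fat minus normal diet in both genotypes.

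Among all genes tested, 1.22% passed for genotype on the normal diet (0.636% lower in aERKO), 1.98% on the high-fat diet (0.881% lower) and 4.32% averaged over the diets (2.26% lower), and of the 10 genes here 3, 2 and 3 passed. Those were Vldlr, Apom and Apoa2 on the normal diet and averaged, and Vldlr and Apom on the high-fat diet, all of them lower in aERKO. Averaged over the diets, Vldlr differed by -1.08 ± 0.11 (adjusted p = 4.95e-05), Apom by -0.84 ± 0.10 (adjusted p = 0.000239) and Apoa2 by -0.27 ± 0.06 (adjusted p = 0.0233). All 6 aERKO arrays were below all 6 WT arrays for 1.64% of genes, and for 2 of the 10 here, Vldlr and Apom.

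Apoa2, the second structural protein of high density lipoprotein, gave 75976, 72242 and 81822 in WT and 57816, 63656 and 54678 in aERKO on the normal diet. On the high-fat diet it gave 58788, 68727 and 63379 in WT and 56507, 61645 and 53876 in aERKO. The groups were apart on the normal diet and overlapped on the high-fat diet. On the normal diet the aERKO level was 0.765 times that of WT (-0.39 ± 0.09, adjusted p = 0.0441), while on the high-fat diet the difference was -0.15 ± 0.09 (adjusted p = 0.446). The call on the normal diet sat close to the threshold: it held in 7 of 28 alternative settings, and in 2 of the 12 in which an array was left out. Those were without WT high-fat replicate 2 (adjusted p = 0.0493) and without aERKO high-fat replicate 3 (adjusted p = 0.0456), and over the 12 the adjusted p ran from 0.0456 to 0.157. After quantile normalization the difference was -0.14 (adjusted p = 0.363), without the 4 arrays with acinar transcripts it was -0.42 (adjusted p = 0.246), and without the 2 muscle arrays it was -0.38 (adjusted p = 0.180). The Apoa2 call averaged over the diets held in 17 of 27 alternative settings. It was lost with no filter (adjusted p = 0.0915), without the intensity trend (0.117), after quantile normalization (-0.12, adjusted p = 0.146) and median centring (-0.21, adjusted p = 0.114), with covariates for acinar and muscle scores (adjusted p = 0.0540), and without the acinar arrays (-0.23, adjusted p = 0.306) or the muscle arrays (-0.29, adjusted p = 0.0574). It was also lost without WT high-fat replicate 2 (adjusted p = 0.0673), aERKO normal replicate 3 (0.0506) or aERKO high-fat replicate 1 (0.0583).

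Apoa1, the main protein of high density lipoprotein, gave 83063, 77445 and 82532 in WT and 70679.5, 75805 and 64797 in aERKO on the normal diet. In the high-fat groups the signals were 75453, 84549 and 74066 in WT and 71435, 71637 and 63847 in aERKO. The aERKO arrays were below the WT arrays within each diet, but the differences of -0.20 ± 0.08 (adjusted p = 0.327) and -0.18 ± 0.08 (adjusted p = 0.317) did not pass. The other 3 Apoa1 sets differed by -0.27 to -0.39 on the normal diet and by -0.11 to -0.19 on the high-fat diet. Averaged over the diets, 1 of these 3 passed as its own row (-0.29 ± 0.07, adjusted p = 0.0433). After quantile normalization the Apoa1 difference on the normal diet was 0.01, the 1 setting of 28 in which its sign changed.

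Apob, the structural protein of very low density lipoprotein, gave 62390.3, 60007 and 69280.3 in WT and 54460.4, 54976 and 48436 in aERKO on the normal diet. In the high-fat groups it gave 54612, 63952 and 46739 in WT and 47081, 51546 and 47769 in aERKO. The groups were apart on the normal diet and overlapped on the high-fat diet, and the differences of -0.28 ± 0.10 and -0.16 ± 0.10 did not pass (adjusted p = 0.291 and 0.496). The second Apob set was far dimmer, at 275 to 1089.8, and its differences of -0.50 and -0.47 did not pass.

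Mttp gave 10145, 8658 and 10597 in WT and 7229, 8139.6 and 8331 in aERKO on the normal diet. After high-fat feeding it gave 8012, 8924 and 8300.2 in WT and 7179, 6569 and 7719 in aERKO. Every aERKO array was below every WT array of the same diet, and averaged over the diets the level was 0.829 times that of WT, just outside the threshold (-0.27 ± 0.07, adjusted p = 0.0524). That difference passed in 6 of 27 alternative settings, with adjusted p from 0.0157 to 0.288. The arrays whose removal made it pass were WT normal replicate 2 (adjusted p = 0.0317) and aERKO high-fat replicate 3 (adjusted p = 0.0403). The second Mttp set differed by -0.45 ± 0.11 on the normal diet (adjusted p = 0.0843) and -0.12 ± 0.11 on the high-fat diet.

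Apoc3, an inhibitor of triglyceride lipolysis, gave 54508, 57602 and 61351 in WT and 50794, 50802 and 43216 in aERKO on the normal diet. After high-fat feeding the signals were 50859, 56065 and 49528 in WT and 50076, 51523 and 44552 in aERKO. Only the normal diet arrays were apart, and the differences of -0.26 ± 0.09 (adjusted p = 0.234) and -0.10 ± 0.09 (adjusted p = 0.660) did not pass.

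Apoa5, an activator of that lipolysis, gave 54315, 57665 and 59543 in WT and 48878, 51409.5 and 49160.5 in aERKO on the normal diet. On the high-fat diet it gave 48647, 52784 and 51981 in WT and 51287, 56744 and 46466 in aERKO. The groups were apart on the normal diet and mixed on the high-fat diet, and the differences of -0.20 ± 0.08 and 0.01 ± 0.08 did not pass (adjusted p = 0.334 and 0.983). Apoa1, Apoc3, Apoa4 and Apoa5 are neighbours on chromosome 9.

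On the normal diet every aERKO array was below every WT array for 9 of the 10 genes, Pltp being the exception, against 9.62% of all genes. On the high-fat diet this held for 4 of them, Vldlr, Apom, Apoa1 and Mttp, against 12.5% of all genes, and Pltp was higher without overlap, as were 10% of all genes. These counts rest on the brightest set of each gene. On the high-fat diet the genotypes overlapped for the other Apoa1 sets, for some dimmer Vldlr sets and for the second sets of Mttp and Pltp. On the normal diet they overlapped for the second Apoa4 set (highest aERKO signal 10258, lowest WT signal 10229). The brightest sets of Apoa1, Apoa2, Apoa5, Apob and Apoc3 were among the 74 brightest of 45101 probe sets on every array, and small differences at that end moved with the scaling. Their median difference on the normal diet was -0.26, that of the 200 brightest other genes was -0.10 and that of all genes was -0.05. Centring the arrays on those 200 genes left the median of the 5 at -0.22, and quantile normalization left it at -0.04. For the high-fat diet the medians were -0.15 for the 5 genes and -0.03 for both the 200 and all genes. Alb, the albumin gene and a hepatocyte marker, was itself lower in aERKO on the normal diet (-0.50 ± 0.10, adjusted p = 0.0266) and differed by -0.20 ± 0.10 on the high-fat diet (adjusted p = 0.375). Of the other hepatocyte markers, Ttr, Serpina1b, Ahsg, Cps1 and Hpd had lower mean signals in aERKO on both diets. Tat was higher on both (22023 against 20137 and 15205 against 14808). Fgb was lower on the normal diet (57442 against 65005) and higher on the high-fat diet (55886 against 53189). Over the 12 arrays the log2 values of Apoa2 had a Pearson correlation of 0.98 with Alb, and those of Apoc3, Apob, Apoa1 and Apoa5 had correlations of 0.94 to 0.85. These points share the arrays and their scaling. Whether these bright signals lay near the upper limit of the scanner was not tested; the highest signal of any probe set on any array was 96069.

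**Figure D3:**
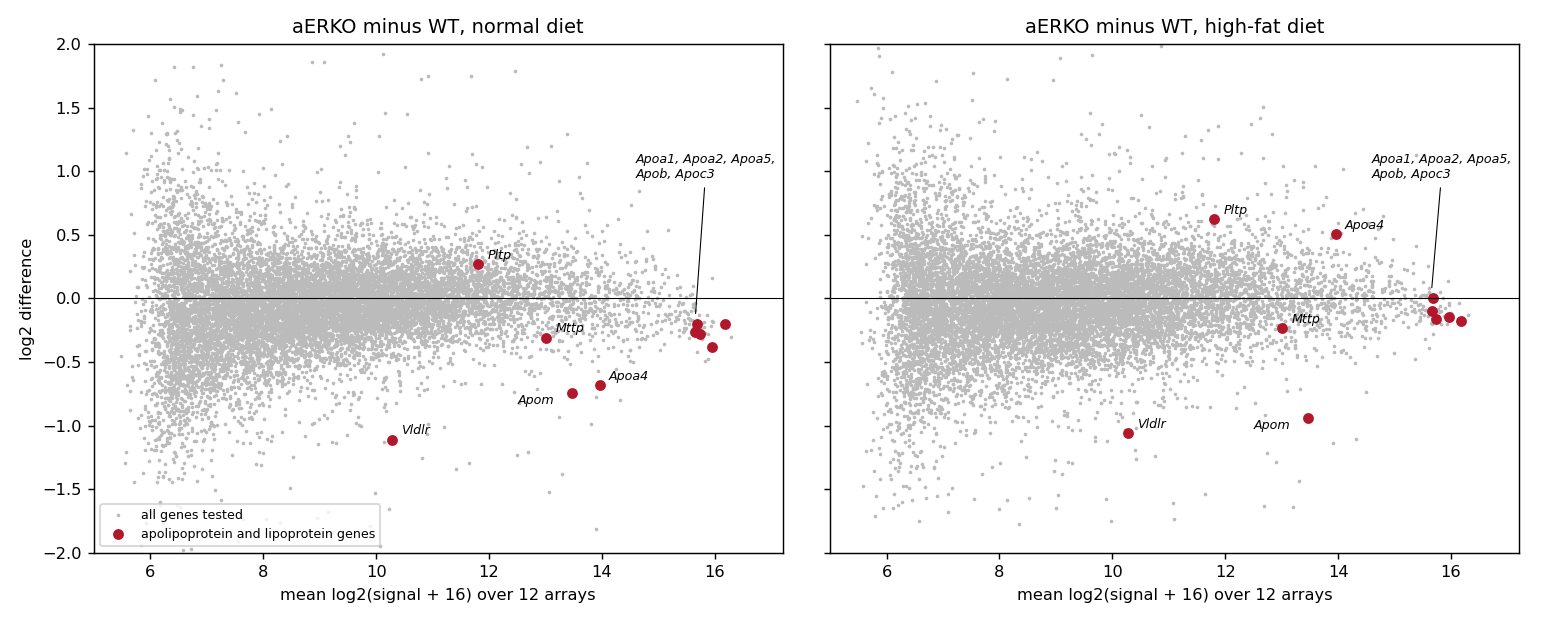
Log2 difference of aERKO minus WT (vertical axis) against the mean log2(signal + 16) over the 12 arrays (horizontal axis) for all genes tested, in grey, and the 10 genes, in red. Apom and Vldlr lie at the lower edge of the cloud on both diets, while the 5 brightest of the 10 genes lie at the right end close to 0. The vertical axis ends at 2 in either direction and leaves out 41 genes on the normal diet and 52 on the high-fat diet.

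Pltp gave 4583, 5552 and 5032 in WT on the normal diet and 1933, 1527 and 2136 on the high-fat diet. In aERKO it gave 4787, 6319 and 7439 on the normal diet and 3376, 2962 and 2330.0 on the high-fat diet. All 6 high-fat arrays were below all 6 normal diet arrays. The level on the high-fat diet was 0.369 times that on the normal diet in WT (-1.44 ± 0.18, adjusted p = 0.00742) and 0.471 times in aERKO (-1.09 ± 0.18, adjusted p = 0.0153). Averaged over the genotypes it was 0.417 times (-1.26 ± 0.13, adjusted p = 0.000435). The diet difference in aERKO minus that in WT was 0.35 ± 0.25, which did not pass (adjusted p = 0.870).

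Few genes passed for diet: 0.0734% of all genes passed for diet in WT (0.0571% lower on the high-fat diet), 0.481% in aERKO (0.147% lower) and 0.946% averaged over the genotypes (0.318% lower), and in each Pltp was the 1 gene of the 10. All 6 high-fat arrays were below all 6 normal diet arrays for 0.334% of genes and for Pltp alone of these 10. Within WT the high-fat arrays lay below the normal diet arrays without overlap for 3 of the 10, Pltp, Apoa2 and Apoa5, against 7.31% of all genes, and within aERKO this was so for Pltp alone of the 10, against 7.66%. The second Pltp set gave 536, 663 and 529.8 against 179, 90.7 and 283 in WT, and 592, 814 and 664 against 343, 364 and 243 in aERKO, normal diet before high-fat diet. Its groups were apart too, with differences of -1.68 ± 0.29 (adjusted p = 0.0691) and -1.09 ± 0.29 (adjusted p = 0.188), and averaged over the genotypes it passed (-1.39 ± 0.21, adjusted p = 0.00837).

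In aERKO the Pltp call was lost when aERKO normal replicate 2 (adjusted p = 0.0611) or 3 (0.0730), or aERKO high-fat replicate 2 (0.0814) or 3 (0.0505), was left out. Without the 4 arrays with acinar transcripts the difference was -1.31 in WT (adjusted p = 0.117) and -1.26 in aERKO (adjusted p = 0.0103). Between genotypes Pltp was the 1 gene of the 10 with a higher signal in aERKO on both diets, by 0.27 ± 0.18 on the normal diet and 0.62 ± 0.18 on the high-fat diet, which did not pass (adjusted p = 0.587 and 0.0957). The second value passed in 2 of 28 alternative settings. Those were array weights (0.68, adjusted p = 0.0139) and the removal of aERKO high-fat replicate 3 (0.77, adjusted p = 0.0467). The average over the diets, 0.45 ± 0.13 (adjusted p = 0.0610), passed in 5 of 27 alternative settings. It passed without aERKO normal replicate 1 (adjusted p = 0.0201) or without aERKO high-fat replicate 3 (adjusted p = 0.0312). It also passed with median centring (0.0327), with array weights (0.0113) and with signal above the median required on all 12 arrays (0.0482).

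**Figure D4:**
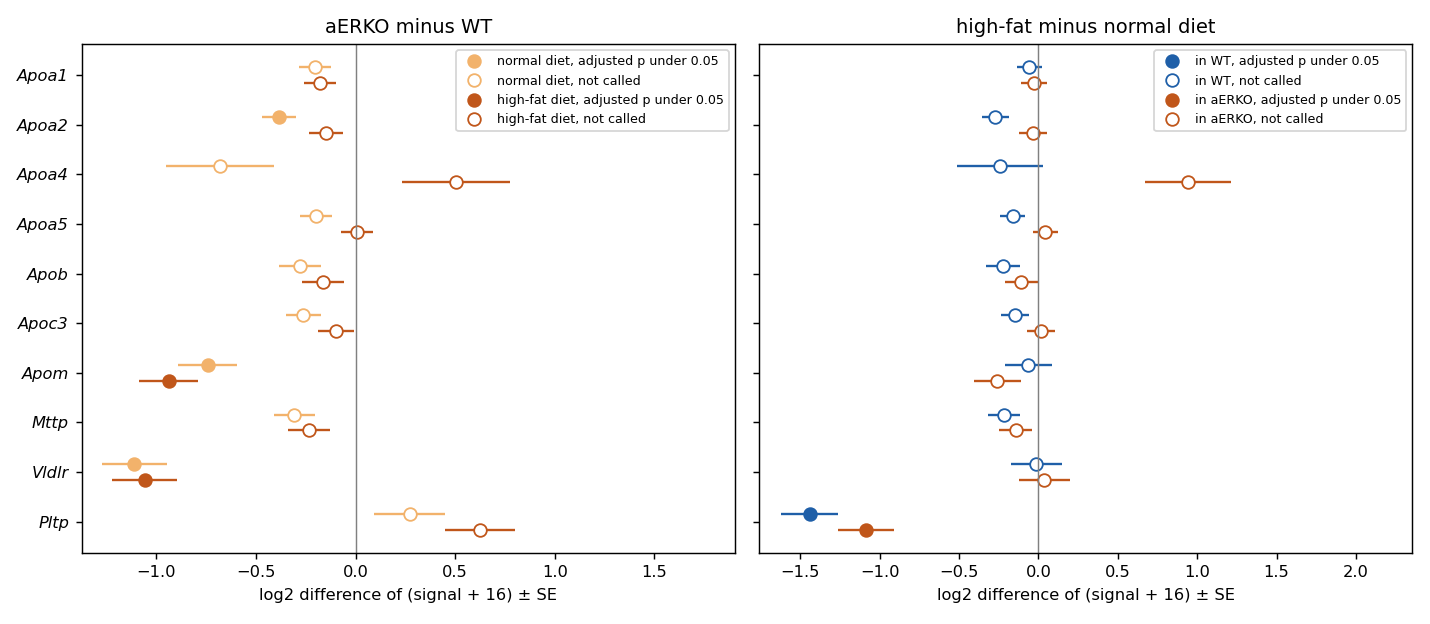
Log2 differences of signal + 16 with their SE (horizontal axis) for the brightest probe set of each gene, by genotype (left) and by diet (right). Filled points passed at an adjusted p under 0.05; those are Vldlr, Apom and Apoa2 on the normal diet and Vldlr and Apom on the high-fat diet in the left panel, and Pltp in both genotypes in the right panel.

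Apoa4, an apolipoprotein made in intestine and, in mice, also in liver, varied between arrays of the same group, most of all in WT on the normal diet. It gave 13327, 13691 and 31353 in WT on the normal diet and 12836, 20259 and 13287 on the high-fat diet. In aERKO it gave 13167, 10609.6 and 9918 on the normal diet and 21858, 24346 and 18560.4 on the high-fat diet. Within aERKO every high-fat array was above every normal diet array, as was so for 9.07% of all genes, and the WT diets overlapped. The high-fat level in aERKO was 1.92 times the normal diet level (0.94 ± 0.27), and this did not pass (adjusted p = 0.192).

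WT normal replicate 3 carried the highest Apoa4 signal and widened the shared estimate of spread. Without that array the diet difference in aERKO had a smaller SE and passed (0.94 ± 0.17, adjusted p = 0.0280), and the genotype difference on the normal diet moved from -0.68 to -0.28. The diet difference in aERKO also passed with array weights (1.08, adjusted p = 0.0219) and when the 2 groups alone were fitted (adjusted p = 0.0341). It was 0.97 ± 0.33 without the 2 muscle arrays, both of them aERKO (adjusted p = 0.590), and without the acinar arrays the adjusted p was 0.248. The second Apoa4 set gave 10258, 8608 and 7086 against 19933, 22912 and 17048 in aERKO, a difference of 1.21 ± 0.28 (adjusted p = 0.114). The interaction for Apoa4, 1.19 ± 0.38, did not pass (adjusted p = 0.748), and it was 0.78 without WT normal replicate 3. The interaction was called for 0 of 12264 genes by limma (0% of those tested), with 728 at an unadjusted p under 0.05. Of 5 enterocyte markers, 4 were on the array, and their mean log2 signal was 9.75 in WT normal replicate 2 and 7.23 to 8.06 on the other 11 arrays, WT normal replicate 3 being at 7.85. Among them Fabp2, which binds fatty acids, read 6492 to 9338 in aERKO on the normal diet and 10552 to 13997 on the high-fat diet. None of the other markers rose there without overlap. In aERKO, normal diet before high-fat diet, Alpi read 70.6 to 151.5 and 61.4 to 176.5, and Vil1 read 9.84 to 30.7 and 6.26 to 19.5. Lct, the lactase gene, was lower on the high-fat diet, at 23.3 to 40.7 and 3.99 to 9.93. It was dim on all arrays, at 4 to 48.4, and neither Lct nor Vil1 passed the filter on low signal. The part of these markers in the Apoa4 values was not tested.

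For the diet in WT all 10 genes had a negative log2 difference, with a median of -0.19, while the median was -0.08 over the 200 brightest other genes and -0.005 over all genes. Centring on those 200 genes left 7 of the 10 negative with a median of -0.11, and quantile normalization left a median of -0.04. In aERKO 6 of the 10 were negative and the median was -0.03. Other than Pltp, the WT differences ran from -0.27 for Apoa2 to -0.01 for Vldlr, and 0 of these 9 passed by limma (1 at an unadjusted p under 0.05, Apoa2).

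Over the 12 arrays Apom and Vldlr had a Pearson correlation of 0.85 with each other, and Pltp had correlations of -0.15 and -0.28 with them. Outside the 10 genes and the lists of lipoprotein genes and transcription factors, the genes most like Vldlr by Pearson correlation of log2 values over 12 arrays were Cyp3a16 (0.951), Net1 (0.950), Sult2a2 (0.944), Slc22a26 (0.942) and Cyp2b13 (0.940). For Apom they were Cyp2c68 (0.975), Cyp2c37 (0.954), Zfp91 (0.934), Pigr (0.933) and Ang (0.932). Those most like Pltp were Rdh16 (0.962), Ces2a (0.943), Psmb6 (0.913), Tmem141 (0.906) and Clcn4 (0.895). Apoa2 was most like Alb (0.977, also on the hepatocyte marker list), Selenop (0.947), Fabp1 (0.945), Serpina1c (0.945) and Rbp4 (0.937). These are descriptions of shared arrays and groups, and a high correlation does not mean a difference of like size. Averaged over the diets, the genotype difference was -0.40 for Net1 and -7.81 for Sult2a2, against -1.08 for Vldlr. Members of the Cyp2c, Cyp3a, Sult2a and Serpina1 families have close relatives whose transcripts can bind the same probes.

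A list of other genes of lipoprotein assembly, lipolysis and uptake had 29 genes tested of 30 on the array. By limma 0 of the 29 passed for genotype on the normal diet, with 9 at an unadjusted p under 0.05 against 1482 of all 12264 genes. On the high-fat diet 1 passed and averaged over the diets 3 passed, all lower in aERKO. The shares of all genes called lower there were 0.881% and 2.26%. Lcat, which esterifies cholesterol on high density lipoprotein, gave 8637, 8378 and 8419 in aERKO against 10797, 11264 and 13109 in WT on the high-fat diet (-0.46 ± 0.09, adjusted p = 0.0205). Pdzk1, an adaptor of the high density lipoprotein receptor, differed by -0.55 ± 0.11 averaged over the diets (adjusted p = 0.0146), and its 6 aERKO arrays ran from 743 to 1449 against 1303 to 1939 in WT, with some overlap. Tm6sf2, which acts in the lipidation of very low density lipoprotein, differed by -0.43 ± 0.11 in that average (adjusted p = 0.0363). For diet 0 passed within WT and 0 within aERKO. At an unadjusted p under 0.05 were 4 and 5 of them, against 1015 and 1265 of all 12264 genes. Averaged over the genotypes 1 passed: Sar1b, a trafficking protein for large lipoproteins, was higher on the high-fat diet (0.27 ± 0.06, adjusted p = 0.0489), against 0.628% of all genes called higher. The Sar1b call held in 7 of 27 settings, that for Tm6sf2 in 10 of 27, that for Pdzk1 in 24 of 27 and that for Lcat on the high-fat diet in 19 of 28. In the genotype average 0 of the 29 passed with acinar and muscle covariates and 0 without the muscle arrays.

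Of 16 transcription factors known to act on these genes, 15 were tested. Ppara, the fatty acid receptor, was lower in aERKO averaged over the diets (-0.35 ± 0.09, adjusted p = 0.0371), a call that held in 11 of 27 settings. In that average 2.26% of all genes were called lower. Rora, a nuclear receptor, was lower on the high-fat diet within aERKO, at 1847, 1859 and 1968 against 3009.7, 2958 and 2666 (-0.60 ± 0.11, adjusted p = 0.0304, held in 15 of 28 settings). Within aERKO 0.147% of all genes were called lower on that diet. No other of the 15 passed in any comparison. Without the 4 arrays with acinar transcripts, 0 of the 29 lipoprotein genes and 0 of the 15 factors passed in any comparison. The part of acinar RNA in these calls was not tested.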

How the data were processed

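Liver RNA of 12 samples was measured on 1-colour Affymetrix arrays after amplification with a 3' IVT kit, per the labels' protocols. The authors deposited a linear intensity per probe set and array, made with Affymetrix Expression Console and MAS5 per the submitters' processing notes. For both, the version is not given in the sources used here. Each array's trimmed mean, without 2% at each end, was 500, so the deposited intensity was already scaled, and MAS5 intensities near background are imprecise. Array medians ran from 75.6 to 114, and log2 values of array pairs had Pearson correlations of 0.939 to 0.963 inside a group and 0.933 to 0.963 across groups. The number of arrays limits the precision, and the median SE of a log2 difference between 2 groups was 0.202. No scan or slide batch was used.

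Of 45101 probe sets, 34958 had 1 symbol, 932 had several and 9211 were not listed. Each of the 18194 genes took its brightest probe set, and 12264 genes were tested after the filter (21558 probe sets when each was its own row). Values were log2(signal + 16), which understates differences of dim genes. With R 4.3.3 and limma 3.58.1, a model with a mean per group was fitted to all 12 arrays (8 residual and 5.85 prior degrees of freedom, intensity trend), with two-sided tests, Benjamini-Hochberg adjustment over all genes and a threshold of 0.05. The fit was tested on simulated data. Averages over the diets or genotypes are means of 2 such differences. The genes, lists, tests and rules were chosen with earlier results of these data known. The genes named are the 10 chosen, Esr1, members of the lipoprotein and transcription factor lists that passed, the 5 genes most correlated with each of the 10 that passed, and marker genes. Alternatives changed the pseudocount, filter, scaling, variance model, probe set choice, covariates and arrays used, with 28 alternatives in all. Alb and the 200 brightest genes were used after the values were seen. Promoter windows and chromosomes are those of RefSeq on GRCm38.p6. The array files name no build.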

Additional observations from a re-analysis of the deposited data

How the results depend on the processing

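No value changed sign past a threshold in any alternative. The number of the 10 genes called for genotype on the normal diet was 3, and it was 1 with median centring, without the intensity trend, with acinar and muscle scores as covariates, without the 4 arrays with acinar transcripts, without the 2 arrays with the highest muscle scores and with only the groups compared. It was 2 with no filter, after quantile normalization, with array weights and with every probe set as its own row. On the high-fat diet it was 2, with Pltp called as well under array weights. It was 1 there with the mean of all probe sets or without the 4 acinar arrays. Averaged over the diets it was 3, and 5 with signal above the median required on all 12 arrays or with array weights. In that average it was 2, Apoa2 being lost, with no filter, without the trend, with the covariates, without the acinar arrays and without the muscle arrays, and 4 with the mean of all probe sets or centred on the 200 brightest genes. With median centring it was 3, Pltp instead of Apoa2. For diet in WT it was 1, and 0 without the trend or without the 4 acinar arrays. For diet in aERKO it was 1, and 0 without the trend or with the mean of all probe sets, and 2 with array weights. With only the groups compared it was 1 as well, Apoa4 instead of Pltp. Leaving out 1 array at a time gave 1 to 3, 2 to 3, 2 to 5, 1 to 1 and 0 to 2 genes in these 5 comparisons, 1 to 1 for diet averaged over the genotypes and 0 to 0 for the interaction. The causes were not tested.

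Over all 12264 genes the calls for genotype on the normal diet were 150, and 83 without the trend, 97 with covariates, 80 without the acinar arrays, 85 without the muscle arrays and 71 with only the groups compared. On the high-fat diet they were 243, and in the order trend, covariates, acinar and muscle 116, 130, 60 and 119, and 944 with array weights. Averaged over the diets they were 530, and in the same order 266, 217, 182 and 296, and 844 with weights. For diet in WT they were 9, and 0 without the trend, 0 without the acinar arrays, 14 without the muscle arrays, 5 without a filter, 24 with the stricter filter and 21 with weights. For diet in aERKO they were 59, and 12, 26, 18 and 16 in that order, 26 with the mean of probe sets, 35 centred on the 200 brightest genes, 22 with only the groups compared and 187 with weights. Averaged over the genotypes they were 116, and 27 without the trend, 27 without the acinar arrays, 40 without the muscle arrays and 192 with weights. For the interaction 0 were called, and 1 with covariates. Leaving out 1 array gave 85 to 142, 108 to 308, 321 to 566, 2 to 20, 13 to 81, 52 to 154 and 0 to 2.

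The share of calls that were higher was 48.0%, 55.6% and 47.7% for genotype on the normal diet, on the high-fat diet and averaged. It was 60.1%, 71.1% and 69.7% with median centring, and 59.0% and 45.2% on the 2 diets when centred on the 200 brightest genes, a setting added after seeing the data. For diet in WT it was 22.2% and 61.5%, and averaged over the genotypes 66.4% and 77.5%, before and after that centring.

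Replicate numbers are shared across groups in the labels. Same-numbered arrays deviated together no more than others (mean correlation -0.026 over 18 pairs, against 0.013 over 36 other pairs), so the numbers were not used as pairs. With the replicate number as a block, 3, 2, 3, 1, 1, 1 and 0 of the 10 genes were called in the order above, and 131, 210, 479, 6, 51, 121 and 0 of all genes.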
